A study of Mus musculus with 4 samples.

Results

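The Schlafen cluster is a run of related genes on mouse chromosome 11. Its 7 members described here are Slfn1, Slfn2, Slfn3, Slfn4, Slfn5, Slfn8 and Slfn9, out of 21631 protein-coding genes on the compared chromosomes. Accessible regions were taken as the ATAC-seq peaks, called separately for each library by the authors, that overlapped the RefSeq body of a member or 10 kb on either side (build mm10, equal to GRCm38). That gave 20 peaks of 76437 in Scd1-deficient DN3 thymocytes and 19 of 76814 in control DN3 thymocytes. In naive CD4 T cells it gave 21 of 51297 peaks in the Scd1-deficient library and 18 of 46576 in the control library. Joined where they overlapped, these peaks made 20 regions, of 90270 in the whole series.

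ATAC-seq marks open chromatin by letting the Tn5 transposase cut and tag accessible DNA. The 4 libraries came from primary mouse cells without any treatment, 1 library for each combination of genotype and cell type. They were DN3 thymocytes of Scd1-deficient mice, DN3 thymocytes of littermate controls, splenic naive CD4 T cells of Scd1-deficient mice and splenic naive CD4 T cells of littermate controls. DN3 cells are early thymocytes, sorted here as lineage-negative, CD4-negative, CD8-negative, CD44-negative and CD25-positive, while naive CD4 cells were isolated with magnetic beads. Scd1 encodes a stearoyl-CoA desaturase, an enzyme that makes monounsaturated fatty acids. Age, strain, the design of the Scd1 allele and the number of pooled animals are not in the labels. Control titles carry the letters HZ without an explanation. Each group has 1 library, so values are given without tests or p-values. The 2 DN3 libraries were not tested against the 2 naive ones across genotypes either, so each genotype's values are given side by side. DN3 and naive cells also differ in organ and in isolation, and these cannot be told apart from the cell type.

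Schlafen genes take their name from the German word for sleep, since the first of them were found as genes that rise while thymocytes mature and that slow cell growth. Slfn1 and Slfn2 encode the short proteins of the family, Slfn3 and Slfn4 intermediate ones, and Slfn5, Slfn8 and Slfn9 long ones with a helicase-like part. Mice with a defective Slfn2 have T cells that fail to stay quiescent, and many family members are induced by type I interferon. The human relatives of the long group, among them SLFN11 and SLFN13, cut transfer RNA. The rodent cluster grew by repeated duplication, so several members are close copies.

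Just upstream of the starts some members share short runs of letters, and 1 pair, Slfn8 and Slfn9, is alike over most of the sequence. The sequences are shown as a description and were not tied to how open the starts are. All 7 members matched the RefSeq table of promoters (GRCm38.p6), from which the 250 bases before each start were read. Slfn1, Slfn2, Slfn3 and Slfn4 each held ACTTCCTGG, and 0.7% of 32851 upstream sequences of this length, these 4 included, held those letters on either strand. These 9 letters were picked out after the 4 sequences had been compared. Pairs among these 4 members were 47.0% to 51.2% identical in a global alignment over the 250 bases, and Slfn1 and Slfn9 were 53.1% identical. The run stood both in Slfn2 and Slfn3, with a start peak in all 4 lists, and in Slfn4, with none in any list. The run contains the reverse complement of AGGAAG, a core bound by ETS family factors, which was also found in Slfn9 and in 29.5% of all upstream sequences. In the 4 lines that follow, each read 5′ to 3′ on the + strand, the capitals mark CTTCCT.
Slfn1, chr11:83116727-83116772: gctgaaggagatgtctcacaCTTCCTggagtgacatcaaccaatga
Slfn2, chr11:83065038-83065083: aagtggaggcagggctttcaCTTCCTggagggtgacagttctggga
Slfn3, chr11:83191269-83191314: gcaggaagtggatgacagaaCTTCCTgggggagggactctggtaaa
Slfn4, chr11:83175094-83175139: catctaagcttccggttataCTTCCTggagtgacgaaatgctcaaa

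Slfn8 and Slfn9 held a different element. Their upstream sequences were 80.2% identical in a global alignment (210 of 262 columns), and the next pair of members, Slfn3 and Slfn8, reached 53.4%. Both held TTTCGTTTTC, a match on the reverse strand to the core of the interferon-stimulated response element, a pair of GAAA separated by any 2 bases. That core was also found in Slfn5 and in 2.98% of all upstream sequences. The longer run TTTCGTTTTCCC, picked after the pair had been compared, was in 4 of the 32851 upstream sequences, and 3 of these were the 2 listed starts of Slfn8 and the start of Slfn9. The capitals in the next lines mark the core. The Slfn8 and Slfn9 lines are read along the − strand and show its reverse complement. The Slfn5 line is read along the + strand and shows the core itself, which lies there in a run of A.
Slfn8, chr11:83020829-83020878: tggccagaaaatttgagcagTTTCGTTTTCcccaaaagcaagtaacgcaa
Slfn9, chr11:82991846-82991895: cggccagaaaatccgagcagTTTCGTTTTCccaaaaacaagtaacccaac
Slfn5, chr11:82951927-82951976: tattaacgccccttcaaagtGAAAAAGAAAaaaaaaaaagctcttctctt
The STAT motif TTCNNNGAA and the longer ETS motif CCGGAAGT were found in none of the members, and in 7.02% and 2.88% of all upstream sequences. RUNX (TGTGGTT) and TCF/LEF (CTTTGAT) matches stood in Slfn8 alone, an AP-1 match (TGACTCA) in Slfn4 alone and a GATA match (AGATAA) in Slfn9 alone, against 4.4%, 3.21%, 4.46% and 9.99% of all. The E-box CAGCTG was in Slfn5 and Slfn8 (13% of all), and the GC-rich GGGCGG in Slfn5 and Slfn9 (32.7%). Such matches describe letters and do not show binding.

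The lists as a whole set the scale for what follows. The lists named peaks with a −log10 q down to 1.31 or 1.32, and a median fold over local background of 6.63 in Scd1-deficient DN3, 6.82 in control DN3, 7.95 in Scd1-deficient naive and 7.68 in control naive cells. The deposited fold and −log10 p gave back the whole number of fragments at every summit, within 0.05, and the lowest background of each library. That background was 4.47, 4.72, 3.65 and 5.12 fragments in the same order. Dividing summit fragments by it gave a second level, called the multiple of the lowest background here, which is not reduced where a broad stretch of open chromatin raises the local background. Total read depth is unknown. Of 9 DN3 marker genes, 9 had a peak within 1 kb of an end in both DN3 lists, and 7 in the Scd1-deficient and 6 in the control naive list. Ptcra and Rag2, genes of the DN3 stage, had none in the naive lists, and Rag1 had one at 13.1 in the Scd1-deficient naive list. All 7 naive CD4 markers had such a peak in all 4 lists. Of 4 B cell markers 1 had a peak in each list, which was Cd79a in the naive lists (53.8 in the Scd1-deficient and 54.5 in the control), and Ms4a1 had none. Of 4 myeloid markers 2 had one in each list, of 2 CD8 markers 2 had one in the DN3 and 1 in the naive lists, and of 2 NK markers 1 had one in the DN3 lists and 0 in the naive lists. Their part in the results was not tested. Scd1 itself had a peak at its end in all 4 lists, with −log10 q of 50.8 in Scd1-deficient and 75.8 in control DN3, and 19.05 in Scd1-deficient and 25 in control naive cells, which does not check the genotype because the deleted part is not stated.

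Across the cluster most regions were called in both cell types. Of the 4 called in 1 cell type, 3 were in both naive lists and 1, a weak peak in Slfn8, was in Scd1-deficient DN3 alone. Of the 20 regions, 14 were called in all 4 lists, which is 70% (Wilson 95% interval 48.1 to 85.5, for counting error only), against 41.5% of all regions and 44.2% of those within 10 kb of a protein-coding gene. Regions called in both DN3 lists and neither naive list numbered 0 of 20, which allows a share of up to 15%. Over all regions that pattern made up 28.3%, and 26.6% near protein-coding genes. Regions called in both naive lists and neither DN3 list numbered 3 of 20, or 15% (5.24 to 36.0), against 5.11% of all and 4.77% near genes. The remaining 3 regions were called in 1 or 3 lists. All 7 members were without a DN3-only region, which held for 44.8% of the 17284 protein-coding genes with any region. Slfn1, Slfn5 and Slfn9 had at least 1 naive-only region and no DN3-only one, a pattern of 5.39% of such genes, and Slfn5 and Slfn9 share one of these regions. The DN3 lists are longer than the naive ones. With every list kept to its 46576 strongest peaks, DN3-only regions were 0 of 19 (16.1% of all) and naive-only regions 5 of 19 (14.8% of all), the added ones being both weak regions inside Slfn8.

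**Figure D1:**
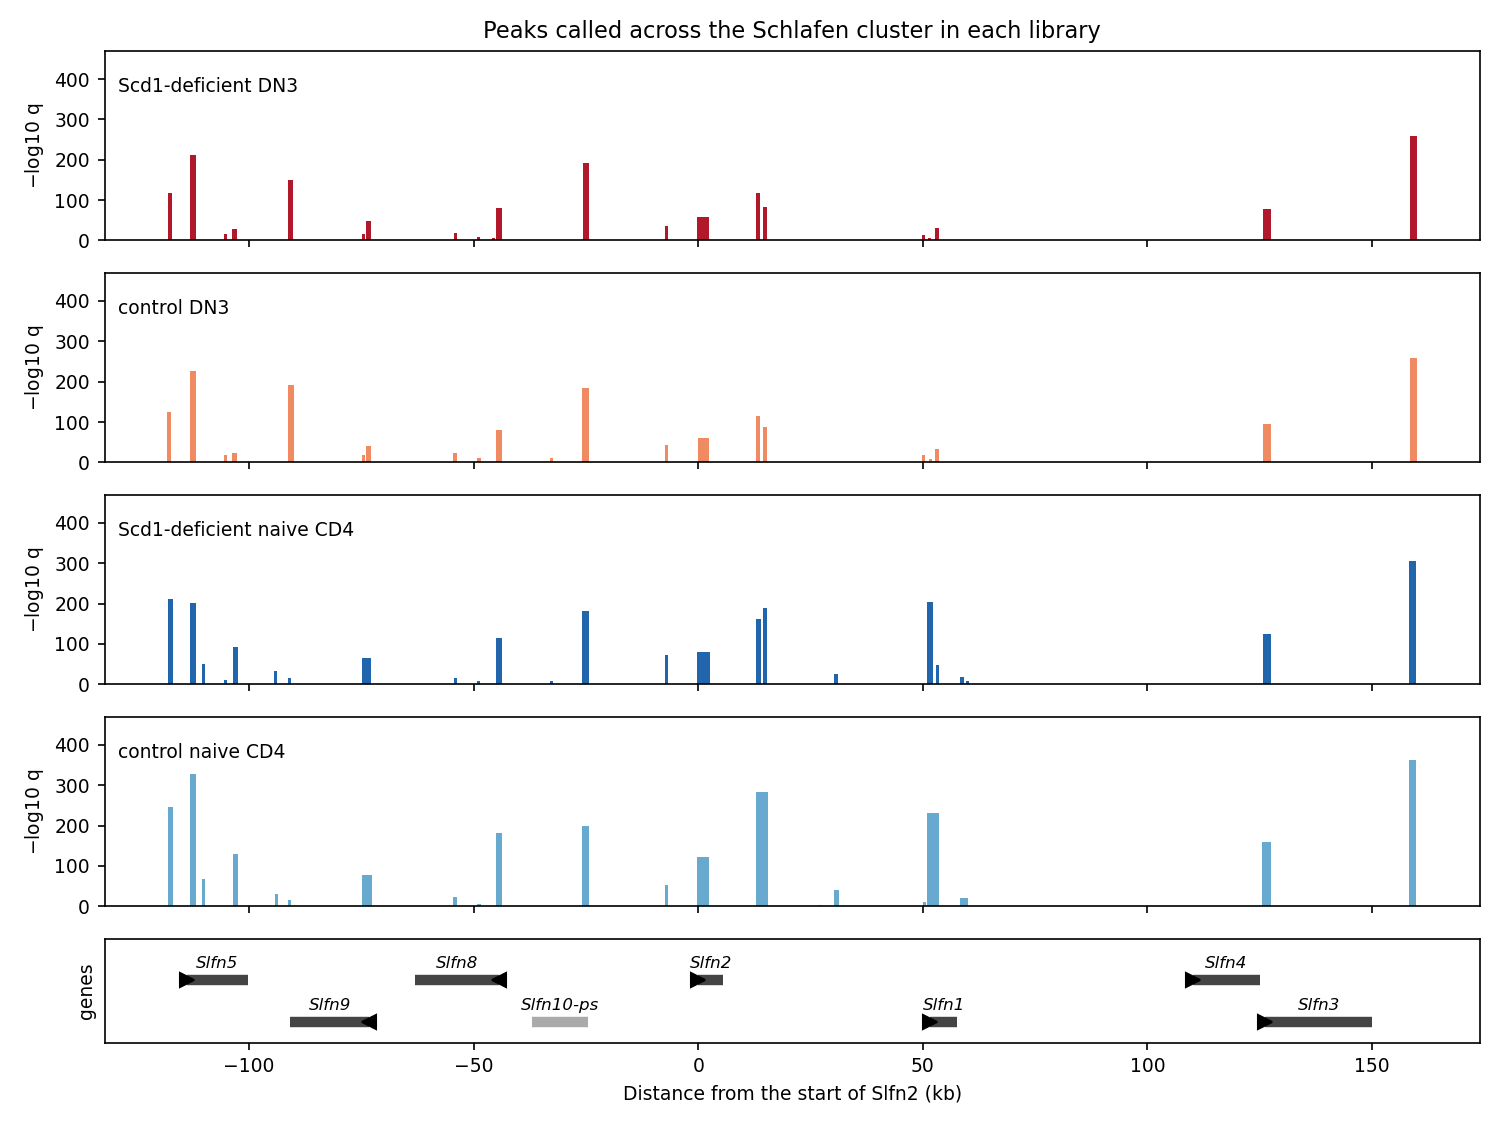
Peaks across the Schlafen cluster in the 4 libraries. Each bar spans a peak (at least 0.7 kb is drawn) and its height is the authors' −log10 q; the x axis is the distance from the start of Slfn2 in kb, and the lowest panel shows the genes, with arrowheads at their starts and no direction for Slfn10-ps. The Slfn1 start is at 204 and 231 in the naive libraries and at 6.53 and 7.28 in the DN3 libraries.

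**Figure D2:**
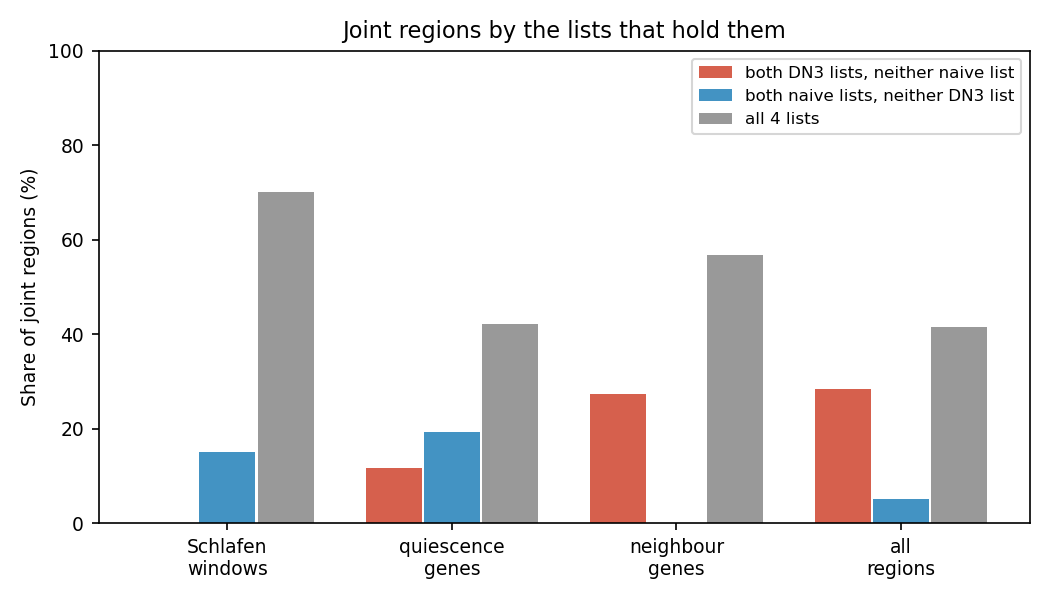
Share of joint regions, in percent, called in both DN3 lists and neither naive list, in both naive lists and neither DN3 list, and in all 4 lists. The Schlafen windows (20 regions) have 0% DN3-only and 15% naive-only regions, beside 28.3% and 5.11% over all 90270 regions.

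Slfn1, the short member first tied to growth arrest of thymocytes, showed the widest gap between the cell types among the 6 starts with a peak, on the local fold and on the multiple alike. It lies on the + strand from 83116820 to 83122670. A peak at its start was called in all 4 lists. In Scd1-deficient DN3 it was chr11:83116489-83116747, with 22 fragments at the summit (exact Poisson 95% interval 13.8 to 33.3), a fold of 3.84 and a −log10 q of 6.53. In control DN3 it was chr11:83116590-83117001, with 23 fragments (14.6 to 34.5), a fold of 4.03 and 7.28. The Scd1-deficient DN3 peak ended before the start site. In Scd1-deficient naive cells the peak was chr11:83116103-83117283, with 345 fragments (310 to 383), a fold of 9.33 and 204. In control naive cells it was chr11:83116052-83118831, with 452 fragments (411 to 496), a fold of 7.67 and 231. Both naive summits stood at position −9 from the start. Both naive libraries were thus far above both DN3 libraries in summit fragments. The intervals did not overlap, but they cover counting error only and are not scaled for read depth. Within its own list, 12.9% of peaks had a lower −log10 q in either DN3 library, and 83.2% and 80.0% in the Scd1-deficient and control naive libraries.

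The Slfn1 start was 4.92 and 4.87 times the lowest background in Scd1-deficient and control DN3, and 94.4 and 88.3 times in Scd1-deficient and control naive cells. The log2 difference, DN3 minus naive, was −4.26 in Scd1-deficient and −4.18 in control cells. The median over the 9859 genes with a start peak in all 4 lists was −0.58 and −0.51. This set leaves out any gene without a start peak in a DN3 list, however open its start is in naive cells. Among the 9859 genes 1 lay lower than Slfn1 in the Scd1-deficient pair and 0 in the control pair. On the authors' local fold the difference was −1.28 and −0.93, with 0.304% and 0.68% of genes lower. The local background under the summit was 4.99 and 4.96 fragments in Scd1-deficient and control DN3, and 36.1 and 58.0 in Scd1-deficient and control naive cells, so the fold spans less than the multiple does. With each list kept to its 46576 strongest peaks the DN3 start peak of Slfn1 was not listed in either genotype. The whole upstream sequence is given here for Slfn1, open at its start mainly in naive cells, and for Slfn4, with no start peak in any list. Capitals mark AGGAAG on either strand, and they stand at −73 to −68 in Slfn1 and at −72 to −67 in Slfn4.
Slfn1, chr11:83116570-83116819: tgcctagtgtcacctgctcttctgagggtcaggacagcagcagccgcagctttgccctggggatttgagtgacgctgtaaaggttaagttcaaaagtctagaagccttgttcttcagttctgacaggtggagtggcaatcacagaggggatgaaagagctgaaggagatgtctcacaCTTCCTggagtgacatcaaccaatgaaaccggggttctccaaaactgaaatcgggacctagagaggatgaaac
Slfn4, chr11:83174936-83175185: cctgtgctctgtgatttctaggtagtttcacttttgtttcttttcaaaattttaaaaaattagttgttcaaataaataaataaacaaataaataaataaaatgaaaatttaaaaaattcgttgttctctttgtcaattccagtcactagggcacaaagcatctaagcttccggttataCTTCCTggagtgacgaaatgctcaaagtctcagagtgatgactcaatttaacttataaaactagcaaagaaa

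Around the start Slfn1 had further regions. A peak inside the gene, with its summit 1399 to 1452 bp past the start in the 3 lists that called it apart, was the strongest of Slfn1 in DN3 cells. It had 50 fragments and a fold of 8.24 in Scd1-deficient DN3 (chr11:83118030-83118532) and 52 fragments and a fold of 8.71 in control DN3 (chr11:83118020-83118553). The same place was a peak of 160 fragments and a fold of 4.24 in Scd1-deficient naive cells (chr11:83117992-83118743), and in control naive cells it was part of the wide start peak. In DN3 cells of both genotypes the gene therefore had its main opening inside the body, and in naive cells at the start. Since the joined region is represented by its strongest peak, the shared-region values given later set this inner DN3 peak against the naive start peak. Beyond the end of Slfn1 a naive-only region was called, with 47 fragments in Scd1-deficient (chr11:83123407-83124305, fold 5.41) and 61 in control naive cells (chr11:83123384-83125111, fold 4.40). A second, weaker peak followed in the Scd1-deficient naive list, with 30 fragments. Upstream of the start, a narrow region was called in both DN3 lists (30 fragments in Scd1-deficient, 36 in control) and in control naive cells, where it had 121 fragments but a fold of 2.11. It was not called in Scd1-deficient naive cells.

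Between Slfn2 and Slfn1, outside the 10 kb windows, a further naive-only region lay at chr11:83095405-83096340 in Scd1-deficient (41 fragments, fold 9.03, −log10 q 26.8) and at chr11:83095356-83096378 in control cells (61 fragments, fold 10.1, −log10 q 41.4). It was noticed after its values were seen. No DN3 peak overlapped it.

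Slfn2, the short member whose defect ends T cell quiescence, was open in all 4 libraries and stronger in naive cells by the multiple. It lies on the + strand from 83065112 to 83070678, and a wide peak of 2518 to 2854 bp covered its start in every list. The summit held 139 fragments in Scd1-deficient DN3 and 145 in control DN3, against 221 in Scd1-deficient and 340 in control naive cells. As multiples these were 31.1 and 30.7 in DN3, and 60.5 and 66.5 in naive cells. The log2 difference, DN3 minus naive, was −0.96 in Scd1-deficient and −1.11 in control cells, with 8.09% and 2.57% of genes lower. The local fold went the other way, with 5.88 and 5.91 in DN3 and 5.02 and 5.03 in naive cells of the same genotypes. The summit stood at +484 and +833 bp from the start in Scd1-deficient and control DN3, and further into the gene, at +1802 and +1842 bp, in Scd1-deficient and control naive cells.

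Behind Slfn2, a stretch with its first summit 13116 bp past the start in Scd1-deficient DN3 was among the strongest of the cluster. In DN3 cells it held 2 peaks, of 195 and 157 fragments in Scd1-deficient and 186 and 157 in control cells. In Scd1-deficient naive cells it held 2 peaks, of 354 and 383 fragments, and in control naive cells 1 peak of 612 fragments from 83077876 to 83080631. The strongest summit was 43.6 and 39.4 times the lowest background in Scd1-deficient and control DN3, and 104.8 and 119.6 times in the naive libraries of these genotypes. A narrow region with its summit at −7040 bp in Scd1-deficient DN3 was called in all 4 lists, with 53 and 60 fragments in DN3 and 97 and 85 in naive cells, Scd1-deficient before control. All the Slfn2 regions were thus shared, and none was called in 1 cell type alone.

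Slfn3, an intermediate member studied in gut epithelium of the rat, was open at its start in all 4 lists. Its start at 83191330 lies just past the end of Slfn4, on the same strand. The peak held 127 fragments with a fold of 9.63 in Scd1-deficient DN3 and 149 with 10.3 in control DN3. It held 192 with a fold of 10.5 in Scd1-deficient naive and 267 with 9.34 in control naive cells. The summit stood at +945 bp in both DN3 libraries and at −54 and −31 bp in the Scd1-deficient and control naive libraries. Past the end of Slfn3, within 10 kb, lay the strongest region of all the windows by −log10 q, with 258 in Scd1-deficient DN3, 259 in control DN3, 306 in Scd1-deficient naive and 363 in control naive cells. It was chr11:83223489-83225193 in Scd1-deficient DN3 cells.

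Slfn4, an intermediate member known from myeloid cells, had no peak within 1 kb of its start in any list. The peak at the Slfn3 start was the single region of its window. Of the myeloid markers, Cd14 had an end peak in all 4 lists, Lyz2 in the DN3 lists and Itgam in the naive lists. Csf1r had none in any list. Over all 17274 protein-coding genes with a listed start, 66.1% and 66.4% had a start peak in Scd1-deficient and control DN3, and 59.2% and 57.7% in Scd1-deficient and control naive cells. The 6 other members had a start peak in all 4 lists, as did 57.1% of these genes.

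Slfn5, a long member whose human counterpart restrains transcription of interferon-induced genes, had the most summit fragments at its start of all members in every library. Its listed start is 82952102 on the + strand. The start peak held 316 fragments in Scd1-deficient DN3 and 338 in control DN3, against 371 in Scd1-deficient and 607 in control naive cells. The multiples were 70.6 and 71.6 in DN3 and 102 and 119 in naive cells, and the folds 11.3 in both DN3 libraries, with 8.34 and 8.30 in the naive ones. In Scd1-deficient naive cells its interval (334 to 411) overlapped that of the Slfn1 start, whose −log10 q was slightly higher (204 against 202). The antisense transcript Slfn5os overlaps the gene, and the files do not tell which of them a region serves.

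Inside and behind Slfn5 the cell types differed. A naive-only region with its summit at +2741 bp had 172 fragments, a fold of 4.19 and a −log10 q of 50.9 in Scd1-deficient naive cells (chr11:82954595-82955292). In control naive cells (chr11:82954584-82955261) it had 244 fragments, a fold of 3.93 and a −log10 q of 66.5. Both folds lay below the medians of their lists, 7.95 and 7.68. Another naive-only region, between Slfn5 and Slfn9, had 51 fragments and a fold of 9.35 in Scd1-deficient naive cells (chr11:82970925-82971209). In control naive cells (chr11:82970926-82971470) it had 53 fragments and a fold of 7.75. A region in the gene body, with summits between +9639 and +9924 bp, was called in all lists, with 52 and 45 fragments in Scd1-deficient and control DN3, and 139 and 191 in Scd1-deficient and control naive cells. Its log2 fold difference, DN3 minus naive, was −0.52 in Scd1-deficient and −0.70 in control cells, the lowest of the 14 shared regions in both genotypes. Before the start, with summits between −4556 and −4401 bp, a shared region held 204 and 220 fragments in Scd1-deficient and control DN3, and 338 and 459 in Scd1-deficient and control naive cells. Between +7707 and +7747 bp from the start, close to the start of Slfn5os, a narrow peak was called in Scd1-deficient DN3 (41 fragments), control DN3 (43) and Scd1-deficient naive cells (58), and not in control naive cells.

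Slfn9, a long member on the − strand from 82974316 to 82991830, had a region over its far end that was higher in DN3 cells on both scales. It is also in the Slfn5 window. It had 246 fragments and a fold of 9.72 in Scd1-deficient DN3 (chr11:82973774-82975005) and 292 and 10.9 in control DN3 (chr11:82973823-82975083). In naive cells it had 33 fragments and a fold of 6.02 in the Scd1-deficient (chr11:82973805-82974409) and 37 and 5.38 in the control library (chr11:82973835-82974496). The fragment intervals were 216 to 279 and 259 to 327 in DN3 and 22.7 to 46.3 and 26.1 to 51.0 in naive cells. They did not overlap between the cell types, but cover counting error only and are not scaled for read depth. The multiples of the lowest background were 55.0 and 61.9 in Scd1-deficient and control DN3, and 9.03 and 7.23 in the naive libraries of these genotypes. The fold ratio, DN3 over naive, was 1.61 in Scd1-deficient and 2.02 in control cells. It was the 1 region of the 14 past 1.5 times in both genotypes with DN3 higher, against 6.52% of all regions called in all lists. The start of Slfn9 was open in every library, with 82 and 76 fragments in Scd1-deficient and control DN3 and 96 and 132 in Scd1-deficient and control naive cells. Its upstream sequence is close to that of Slfn8, and how reads matching both genes were placed is not stated, so values of either are uncertain to that extent.

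Slfn8, a long member on the − strand from 83002125 to 83020810, was open at its start in every library, with summits on both sides of the interferon response core. They stood at −32 and −26 bp in Scd1-deficient and control DN3, and at −75 bp in both naive libraries, and the core lies from −48 to −39. The start peak held 124 and 126 fragments in Scd1-deficient and control DN3, and 159 and 256 in Scd1-deficient and control naive cells. The local fold was 10.4 and 10.1 in DN3 and 12.4 and 12.2 in naive cells. Of 2 weak regions inside the gene called in all lists, the first held 35 and 41 fragments in DN3 and 29 and 43 in naive cells, and the second 40 and 45 in DN3 and 39 and 50 in naive cells, Scd1-deficient before control. The Poisson intervals of all 4 libraries overlapped at both places. A narrow peak near the start, chr11:83019395-83019719, was called in Scd1-deficient DN3 alone, with a −log10 q of 6.71.

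The order of the start levels differed between the cell types through Slfn1. By the multiple of the lowest background, Slfn5 came first in both DN3 libraries, Slfn2, Slfn3 and Slfn8 followed between 26.7 and 31.6, then Slfn9 and last Slfn1. The Poisson intervals of Slfn2, Slfn3 and Slfn8 overlapped in both DN3 libraries, so their order there is not resolved. In naive cells Slfn1 came second, behind Slfn5 and ahead of Slfn2, Slfn3, Slfn8 and Slfn9. There the intervals of Slfn3 and Slfn8 overlapped in both genotypes. In Scd1-deficient naive cells those of Slfn5 and Slfn1 overlapped too, as did those of Slfn2 and Slfn3, so these orders are not resolved. Slfn9 was at 18.3 and 16.1 in Scd1-deficient and control DN3 and at 26.3 and 25.8 in the naive libraries of these genotypes. All 6 starts were lower in DN3 than in naive cells by this measure in both genotypes. This direction was not particular to the cluster. The median log2 difference, DN3 minus naive, over 9859 genes was −0.58 in Scd1-deficient and −0.51 in control cells. Slfn5 and Slfn9, both at −0.52 in Scd1-deficient cells, lay above the median there, and the other members with a start peak lay below it. All 6 lay below the control median. In Scd1-deficient cells the share of genes with a still lower difference was 12.3% for Slfn3, 39.0% for Slfn8, 58.6% for Slfn5 and 59.4% for Slfn9. In control cells it was 20.8% for Slfn3, 8.003% for Slfn8, 20.4% for Slfn5 and 26.1% for Slfn9.

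**Figure D3:**
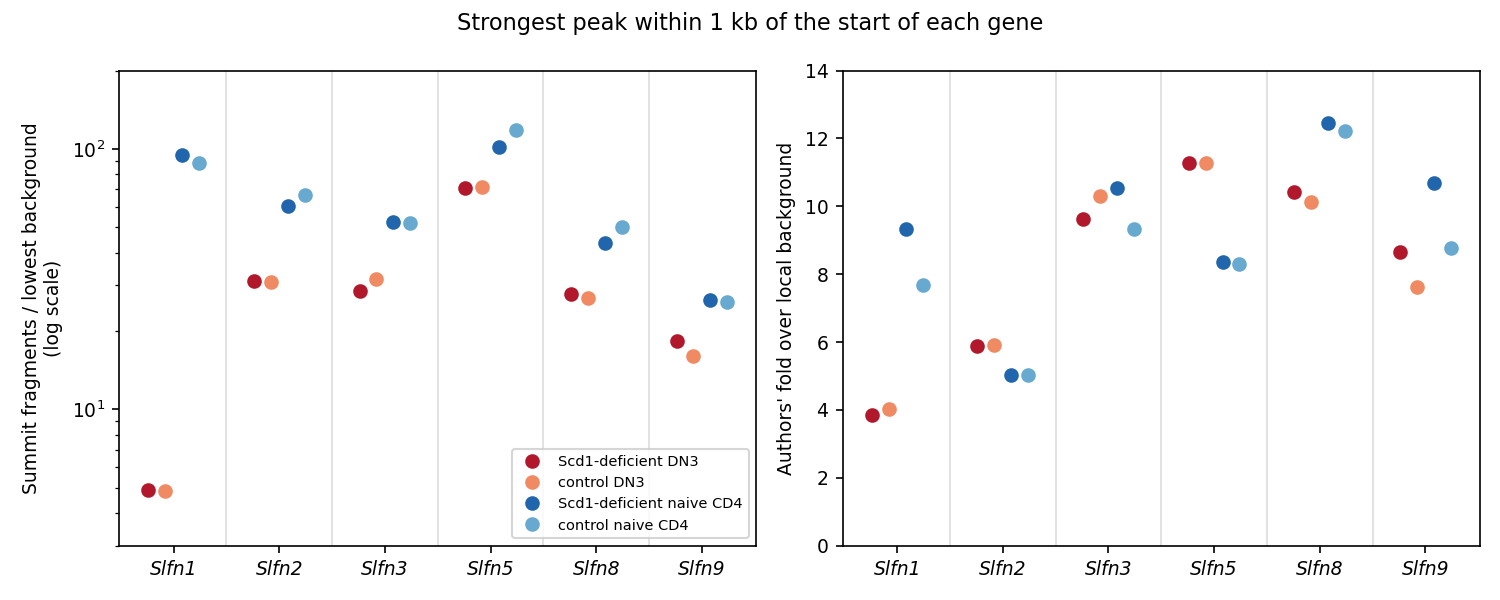
Strongest peak within 1 kb of the start of 6 members, 1 point per library. The left panel gives summit fragments divided by the lowest background of the library on a log axis, and the right panel the authors' fold over the local background; Slfn4 has no peak. Slfn1 is at 4.92 and 4.87 in DN3 and at 94.4 and 88.3 in naive cells on the left, and the other members differ less between cell types.

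Over the 14 shared regions, the direction between the cell types depended on the scale. By the local fold, the median log2 difference, DN3 minus naive, was −0.07 in Scd1-deficient and 0.15 in control cells, against −0.11 and 0.02 over all 37418 shared regions. On that scale 6 of 14 regions were higher in DN3 in Scd1-deficient and 11 of 14 in control cells. Over all shared regions the quartiles of this difference were −0.36 and 0.14 in Scd1-deficient and −0.23 and 0.31 in control cells. The fold was past 1.5 times lower in DN3 in both genotypes at 0 of 14 regions, which allows a share of up to 21.4% (7.01% of all). By the multiple of the lowest background, the median was −0.77 in Scd1-deficient and −0.73 in control cells, against −0.39 and −0.18 over all. In these genotypes 1 of 14 and 2 of 14 regions were higher in DN3. The quartiles of the multiple's difference over all shared regions were −0.74 and 0.24 in Scd1-deficient and −0.65 and 0.59 in control cells. On that scale 7 of 14 regions were past 1.5 times lower in DN3 in both genotypes, against 25% of all regions, and 1 was higher, against 15.5%. The peaks covered 9.04% and 9.12% of the 200.9 kb of joined windows in Scd1-deficient and control DN3, and 10.6% and 12.1% in Scd1-deficient and control naive cells. Over the genome the covered length ran the other way, at 57.8 and 59.8 Mb in DN3 and 42.1 and 44.9 Mb in naive cells, Scd1-deficient before control.

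**Figure D4:**
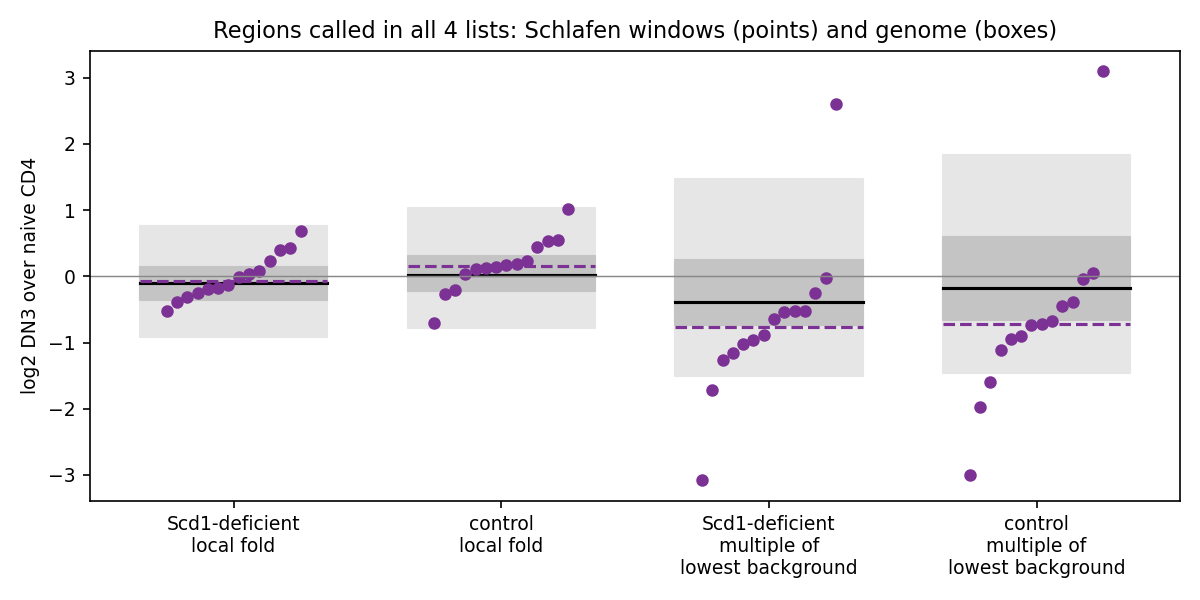
Log2 of DN3 over naive CD4 at the 14 Schlafen regions called in all 4 lists (points, sorted by value, dashed line at their median), beside all 37418 such regions (black line median, dark box the middle 50%, light box the 5th to 95th percentile). On the local fold the cluster median lies near that of all regions (0.15 against 0.02 in control cells); on the multiple of the lowest background it lies below (−0.73 against −0.18).

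Few regions of the cluster were called in 1 genotype and not in the other. In DN3 cells 1 of 20 Scd1-deficient peaks had no control counterpart, or 5% (0.888 to 23.6), against 9.48% of the whole list. It was the weak Slfn8 peak already given. Of 19 control peaks 0 lacked an Scd1-deficient counterpart, which allows up to 15.8%, against 10.4% of the list. In naive cells 1 of 21 Scd1-deficient peaks had no counterpart (4.76%, with 12.4% over the list), and 1 of 18 control peaks (5.56%, with 5.77% over the list). These were the narrow peak near the Slfn5os start and the narrow peak before Slfn1, and both places were called in both DN3 lists. With 1 library per genotype, such a call cannot be told apart from the spread between libraries.

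No shared region passed 1.5 times between the genotypes on the authors' fold. In DN3 cells, 16 regions were called in both genotypes, and their log2 fold difference, Scd1-deficient minus control, ran from −0.29 to 0.18 with a median of −0.06 (−0.01 over all 67601 regions). The lowest was the narrow region before Slfn1, with 5.15 in Scd1-deficient and 6.28 in control cells, and the highest the start of Slfn9, with 8.64 and 7.63. In naive cells 17 regions ran from −0.16 to 0.43 with a median of 0.16 (0.13 over all 43755). The highest was the narrow region 7 kb before Slfn2, with a fold of 12.9 in Scd1-deficient and 9.52 in control cells. Over all regions 0.66% were higher and 1.64% lower in Scd1-deficient DN3, and 5.16% higher and 0.482% lower in Scd1-deficient naive cells. The counts of 0 allow shares of up to 18.8% in DN3 and 17.6% in naive cells. By the multiple of the lowest background the region before Slfn2 passed 1.5 times in naive cells (26.6 in Scd1-deficient, 16.6 in control), as did 10.9% of all regions. The other counts by that measure were 0 of 16 in either direction in DN3 (0.953% higher and 2.42% lower over all regions) and 0 of 17 lower in naive cells (0.53%).

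**Figure D5:**
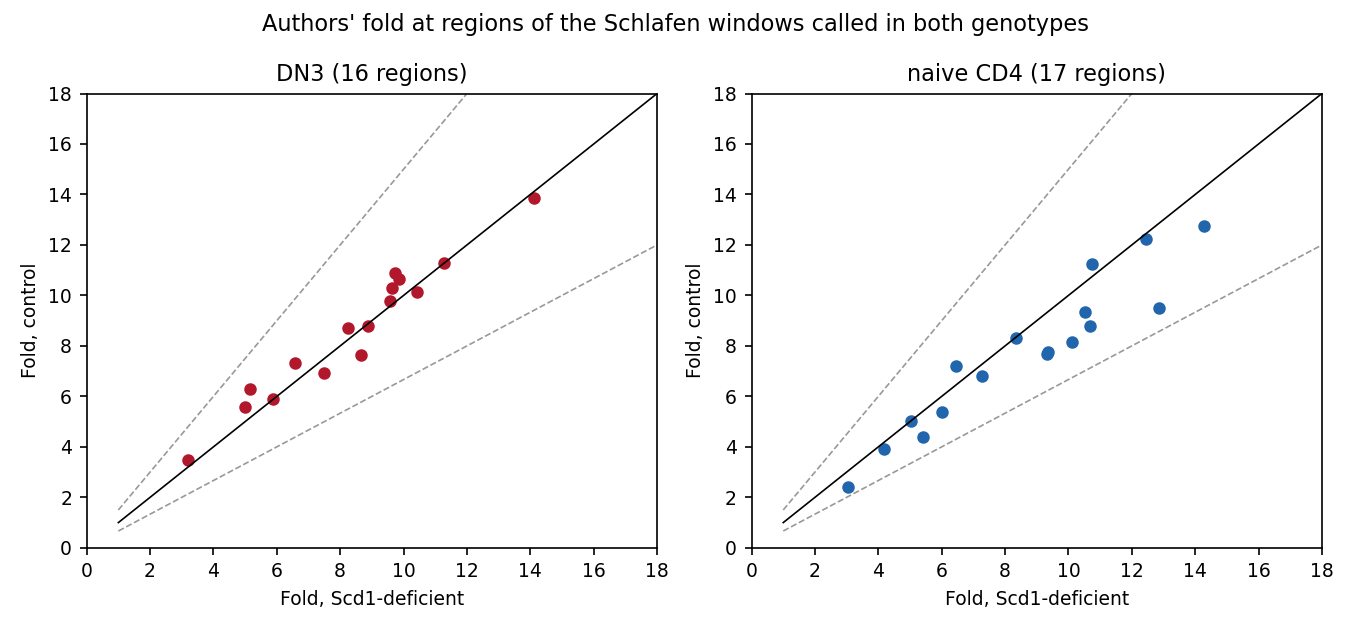
Authors' fold at regions of the Schlafen windows, Scd1-deficient on the x axis and control on the y axis, for 16 regions of DN3 and 17 of naive CD4 cells; the solid line is equality and the dashed lines are 1.5 times either way. All points lie between the dashed lines, and in naive cells most lie slightly toward the Scd1-deficient side (median log2 difference 0.16, with 0.13 over all regions).

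The 23 protein-coding genes within 500 kb that are no Schlafen genes had 44 regions, of which 12 (27.3%) were DN3-only, near the 28.3% of all regions. Naive-only were 0 of 44, which allows a share of up to 6.82% and so does not set them apart from the 5.11% of all regions, and 25 were in all 4 lists. Unc45b, directly before Slfn5, had 6 regions in its window, the Slfn5 start among them, each called in all 4 lists. The list of 19 genes tied to T cell quiescence, chosen with earlier results known, had 323 regions, with 38 (11.8%) DN3-only and 62 (19.2%) naive-only, against 28.3% and 5.11% of all regions. Bach2, a repressor that holds T cells naive, had 16 naive-only and 5 DN3-only regions, and Foxp1, a quiescence factor, had 18 and 9. Btg1 had 3 and 0, and Il7r, the interleukin 7 receptor chain, 2 and 0.

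Of the other family members, Slfn14 had no start peak in any list, with 3 regions in its window, of which 2 were in all lists and 1 in DN3 only. Slfnl1, a relative on chromosome 4, had 2 regions, called in control DN3 alone. Slfn10-ps, a transcribed pseudogene beside Slfn8, carried a strong shared region over one end, with 250 and 247 fragments in Scd1-deficient and control DN3 and 250 and 306 in Scd1-deficient and control naive cells.

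The genes most like Slfn1 in summed fold over the 4 libraries, by Euclidean distance on the log2 scale after adding 1, were H4c1 (0.143) and Sap25 (0.147). For Slfn2 they were Gtf2h1 (0.0572) and Efna3 (0.0784), and for Slfn5 Ndufa7 (0.0362) and Fhl3 (0.0493). The summed fold of Slfn1 was 17.2 and 19.02 in Scd1-deficient and control DN3, and 23.1 and 14.2 in Scd1-deficient and control naive cells, so this measure did not single out its start. With 4 libraries many genes lie close on this scale.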

How the data were processed

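ATAC-seq peak lists of 4 mouse libraries, 1 per genotype and cell type, were used. The submitters' processing notes name Trimmomatic, BWA, MACS2 and mm10, while their settings, duplicate handling and any Tn5 shift were not given in the sources used. The lists deposited by the authors give a fold (the ratio of summit fragments to local background, with 1 added to each), a −log10 p and a −log10 q for each summit, and a score equal to about 10 times the −log10 q. Values rest on each library alone.

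Peaks on chromosomes 1 to 19 and X were used and joined across lists at 1 bp of overlap. For fold comparisons the peak with the highest −log10 q stood for a region. Genes came from RefSeq (GRCm38.p6) without exons, and 17274 protein-coding genes had a listed start and strand. Summit fragments were recovered for 100% of peaks. PCR duplicates may be among them, so intervals and limits (3 counts) cover counting error only. The planned comparison has no test. The members and lists were chosen with earlier results of these data known. Genes named were every member, Slfn10-ps, Slfn14, Scd1 and, for likeness, the 2 nearest genes of 3 members; other list genes were picked after their values were seen. Alternatives covered the window, the overlap, the fold ratio, the list length and each genotype alone. Overlap, fold and fragment steps were tested on simulated data. Python 3.11.15, pandas 2.3.3, SciPy 1.17.1 and Biopython 1.88 were used.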

Additional observations from a re-analysis of the deposited data

Results flagged for a closer look

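A region inside Slfn10-ps, outside the windows of the 7 members, had its genotypes in opposite order in the cell types. In DN3 cells it was called in the control alone (chr11:83032318-83032571, −log10 q 10.6, 27 fragments, 95% Poisson interval 17.8 to 39.3). In naive cells it was called in the Scd1-deficient library alone (chr11:83032364-83032717, −log10 q 8.94, 22 fragments, 13.8 to 33.3). The difference was not tested, and each call rests on 1 library.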

How the results depend on the processing

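Of the counts recomputed under other settings, 124 stayed within 1.5 times the reported value and 20 did not. Many of the 124 were counts of 0 that stayed 0, to which a ratio does not apply. With gene bodies alone the windows held 13 regions, with 1 naive-only region and 0 naive peaks of the control alone. With 50 kb on either side, 1 region had a lower fold in DN3, 1 control-only peak appeared in DN3, and naive cells had 2 Scd1-deficient-only and 2 control-only peaks. The whole span of the cluster, an alternative added after the data were seen, gave the same 1, 2 and 2. With equal numbers of strongest peaks, naive-only regions were 5 and Scd1-deficient-only DN3 peaks 0. In the Scd1-deficient libraries alone 2 regions were DN3-only and 2 higher in DN3; in the control libraries alone 1 was DN3-only, 2 were higher and 1 lower. At a ratio of 2, 0 regions were higher in DN3. With the multiple of the lowest background, also added later, 7 regions were lower in DN3 and 1 was higher in Scd1-deficient naive cells. Fewer or more regions enter by construction with the windows, the list length and the libraries; for the multiple the cause was not tested. No paired analysis was possible because the groups share a single replicate number, which only names a sample; the cell types within each genotype were set side by side without a test.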
